A study of Mus musculus with 4 samples.

Results

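Mpeg1, which encodes the pore-forming protein perforin-2, was described together with 8 genes that are widely used to mark macrophages (Csf1r, Adgre1, Mertk, C1qa, C1qb, C1qc, Cd68 and Lyz2) in CD11c+ cells of mouse mesenteric lymph nodes (MLN). The 9 genes were picked by symbol from the 55450 gene rows of the count tables, and the set was chosen because Mpeg1 was lower in agonist wells. The difference between agonist and control is therefore given for them as a description, with no test. All 9 matched a single row each and all 9 passed the filter on low counts, which left 18297 genes for testing. The agonist group had 2 libraries of cells cultured for 6 h with 10 μM of an agonist of Ffar2, a receptor for short-chain fatty acids. The sources used here do not give the compound's name. The control group had 2 libraries of cells kept for the same 6 h in water as vehicle. Every library came from WT C57BL/6J mice whose age was not given in the labels. Per the labels' protocols, 2 nodes were pooled per sample, CD11c+ cells were enriched on magnetic beads, and the cells of each pool were divided between an agonist and a control well. The library numbers 2 and 3 in the titles thus name the pool of cells, and a bead enrichment can leave other lymph node cells in the sample.

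Macrophages engulf dying cells and microbes, and their survival depends on the receptor encoded by Csf1r. F4/80, the product of Adgre1, is an adhesion receptor used as a surface marker of mouse macrophages. MERTK is a receptor tyrosine kinase that binds dying cells through bridging ligands, and C1q, built from the A, B and C chains, starts the classical complement cascade. CD68 is a glycoprotein of the lysosomal membrane, Lyz2 encodes the lysozyme of myeloid cells that cuts bacterial cell walls, and perforin-2 forms pores in the envelope of engulfed bacteria. Several of these genes are not restricted to macrophages: monocytes and dendritic cells can also transcribe Lyz2, Cd68, Csf1r and Mpeg1.

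Promoter sequence is shown for Mpeg1 and Mertk, the genes whose agonist and control libraries did not overlap, and for the neighbours C1qb and C1qc, whose levels ran in parallel. The sequences come from RefSeq (GRCm38.p6), which held 6 of the 9 genes, and run 5′ to 3′ over the 250 bases before the RefSeq start, less any bases that the GENCODE M21 annotation places inside the gene. The windows were chr19:12460520-12460769 on the plus strand for Mpeg1, chr2:128698665-128698914 on the plus strand for Mertk, chr4:136886201-136886450 on the minus strand for C1qb and chr4:136893066-136893164 on the minus strand for C1qc. Capitals mark the letters AGGAAG on either strand (CTTCCT when read on the other). This is a form of the site bound by the macrophage transcription factor PU.1 and other ETS factors. Other forms of that site were not searched.
Mpeg1: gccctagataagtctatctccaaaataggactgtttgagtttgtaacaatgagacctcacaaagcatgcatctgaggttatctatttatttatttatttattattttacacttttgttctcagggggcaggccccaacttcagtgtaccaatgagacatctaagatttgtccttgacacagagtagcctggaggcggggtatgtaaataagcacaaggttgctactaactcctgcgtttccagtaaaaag
Mertk: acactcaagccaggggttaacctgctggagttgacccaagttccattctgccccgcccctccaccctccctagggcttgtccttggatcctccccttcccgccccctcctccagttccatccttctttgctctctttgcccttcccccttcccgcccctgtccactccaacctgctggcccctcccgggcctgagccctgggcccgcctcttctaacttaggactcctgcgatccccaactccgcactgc
C1qb: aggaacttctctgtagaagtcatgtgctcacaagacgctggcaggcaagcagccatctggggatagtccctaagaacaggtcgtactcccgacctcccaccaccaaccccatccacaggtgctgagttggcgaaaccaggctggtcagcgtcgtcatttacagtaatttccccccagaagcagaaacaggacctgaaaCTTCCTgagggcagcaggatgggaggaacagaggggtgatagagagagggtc
C1qc: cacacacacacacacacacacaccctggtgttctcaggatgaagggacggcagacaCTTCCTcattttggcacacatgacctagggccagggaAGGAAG
Within the full 250 bases before the RefSeq start, AGGAAG stood once in C1qb, 2 times in C1qc and 2 times in Lyz2. It was not found in the windows of Mpeg1, Mertk and Cd68. Of 27025 promoter windows of that length, 29.2% held it. Other motifs searched on both strands were TTNNGCAA (C/EBP), found once in Cd68 and in 9.55% of all windows, and TGCTGA (MAF), found once each in C1qb and Lyz2 and in 15.8% of all windows. The tandem repeat bound by interferon regulatory factors, in 3.04% of all windows, was found in none of the 6. A match of letters is not a measured binding site.

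The libraries held between 43238375 and 59902172 reads assigned to genes. Xist, the X-inactivation transcript, was at 0 in pool 3 and read in both wells of pool 2, and the Y-linked gene Ddx3y was read in both wells of pool 3 and at 0 in pool 2, so the pools differ in sex by these genes. Itgax, which encodes CD11c, had 178 and 95.5 CPM (reads of a gene scaled to a common library total) in agonist replicates 2 and 3, against 189 and 105 CPM in control replicates 2 and 3. Ffar2 itself had 1.71 and 2.05 CPM in the agonist wells, against 4.04 and 3.87 CPM in the control wells. The pool 2 wells differed from each other more widely than the pool 3 wells did. Of 6543 genes with a mean log2 CPM of at least 4, 1 was higher and 29 lower by more than 1 log2 unit in the agonist well of pool 3, against 511 higher and 17 lower in the agonist well of pool 2.

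The levels of the 9 genes spanned a wide range per length. Expressed as CPM per kilobase of the longest protein-coding transcript, the mean over the 4 libraries was 2724 ± 792 for Lyz2, 151 ± 63.0 for Cd68, 105 ± 26.7 for C1qb, 65.8 ± 23.4 for C1qc, 58.8 ± 18.5 for C1qa, 50.1 ± 22.1 for Mpeg1, 46.5 ± 6.44 for Csf1r, 9.50 ± 2.14 for Adgre1 and 0.908 ± 0.720 for Mertk (SD, n = 4 libraries). The ranges of neighbours in that order overlapped across libraries from Cd68 down to Csf1r. Within each single library, by this length, Cd68 lay above C1qb, C1qb above C1qc and C1qc above C1qa. Mpeg1 lay above C1qa and Csf1r in control replicate 3 only, and below both in the other libraries. Some genes further apart in that stretch did not overlap across libraries. Each library of Cd68 lay above each of C1qc, C1qa, Mpeg1 and Csf1r, and each of C1qb above each of Mpeg1 and Csf1r. Lyz2 lay above the range of Cd68, Adgre1 below that of Csf1r, and Mertk below that of Adgre1. With lengths taken over all annotated exons, C1qc had a mean of 41.0 CPM per kilobase and came after C1qa and Mpeg1 and ahead of Csf1r at 37.9. The 9 genes together took 0.341% to 0.584% of the reads assigned to genes.

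**Figure D1:**
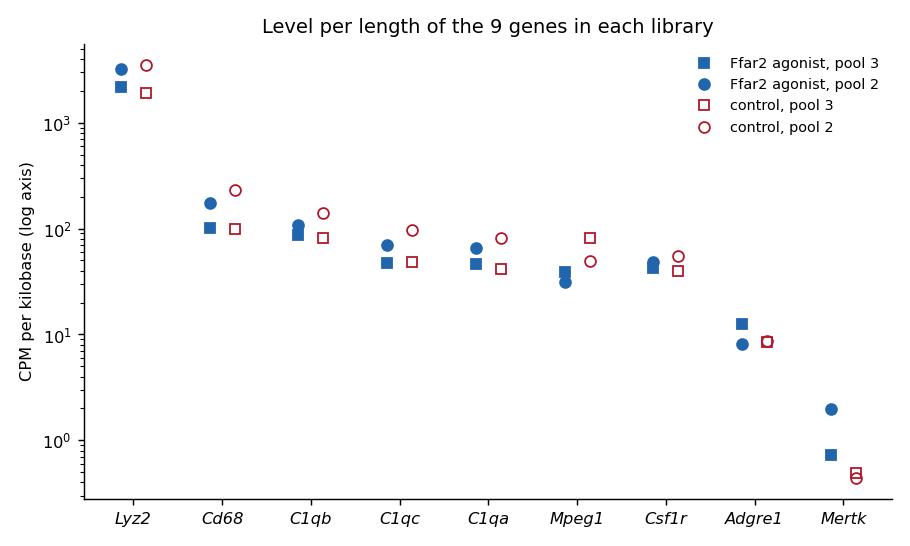
CPM per kilobase of the longest protein-coding transcript (log axis) for the 9 genes, ordered by their mean. Each point is 1 library, filled for Ffar2 agonist and open for control, square for pool 3 and round for pool 2. Lyz2 lies above 1930 in each library and Mertk below 1.98.

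The label of macrophage genes fits the set unevenly. Csf1r, Cd68, the C1q chains and Lyz2 were well read, while Mertk had 82 to 441 reads per library. Genes of macrophage subsets were also read unevenly, and those named next were picked after their values were seen. Of 24 such genes, 5 stayed under 1 CPM in each library. Fcgr1, the high-affinity IgG receptor, had 0.750 and 1.25 CPM in agonist replicates 2 and 3, against 1.06 and 1.47 CPM in control replicates 2 and 3. Cd163, the haemoglobin scavenger receptor, had 0.442 and 1.02 CPM in the agonist wells, against 0.988 and 1.05 CPM in the control wells. Siglec1 and Marco, found on lymph node sinus macrophages, were read at 26.4 to 43.4 and 42.4 to 54.5 CPM in the agonist wells, against 27.8 to 35.8 and 42.8 to 58.2 CPM in the control wells. Hmox1, the haem-degrading enzyme of iron-recycling macrophages, had 318 and 446 CPM in the agonist wells, against 362 and 307 CPM in the control wells. Cd209b, a lectin of marginal zone and lymph node macrophages, had 61.5 and 69.4 CPM in the agonist wells, against 65.5 and 58.9 CPM in the control wells. The summed level of 12 conventional dendritic cell markers was 11910 and 16170 CPM in agonist replicates 2 and 3, against 12190 and 14720 CPM in control replicates 2 and 3, most of it from Ccr7. In bulk RNA, fewer cells of a type and less RNA per cell cannot be told apart.

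Mpeg1 (ENSMUSG00000046805.10, chromosome 19, 12460779 to 12465283, plus strand, GRCm38) had 7032 and 9477 reads in agonist replicates 2 and 3, against 9308 and 18433 reads in control replicates 2 and 3. Scaled, these were 135 and 167 CPM in the agonist wells, against 214 and 353 CPM in the control wells. Both agonist wells lay below both control wells, and control replicate 3 stood highest by a wide margin. The means were 151 ± 22.5 CPM with agonist and 283 ± 98.4 CPM in the control (SD, n = 2 each). The log2 difference, agonist minus control, was -0.91 over all libraries, -1.08 within pool 3 and -0.66 within pool 2. As folds, the agonist well had 0.473 times the control level in pool 3 (95% exact binomial interval for counting error alone, 0.462 to 0.485) and 0.633 times in pool 2 (0.613 to 0.653). Among the 6543 better-read genes, 0.290% had a lower difference in pool 3 and 2.77% had a lower one in pool 2. The set was chosen because Mpeg1 was lower in agonist wells, so nothing is read from these ranks. Without control replicate 3 the log2 difference was -0.43. That fit sets both agonist pools against control pool 2 alone, so a pool difference enters it, while the matched wells of pool 2 gave -0.66. The exons of Mpeg1 overlap no other annotated gene, and no 50-base window of its transcript recurs in another gene.

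Over all genes, no agonist effect passed the main test. edgeR's quasi-likelihood test, with treatment as sole term and the pairing of wells not used, called 0 of 18297 genes (0%). At an unadjusted p under 0.05, 117 genes were higher (0.639%) and 172 lower (0.94%) in that fit. limma-voom called 0 genes and DESeq2 called 7. With the pool of cells as a block, which uses the pairing, edgeR called 1 gene (0.00547%), the IgA constant region Igha. In that fit 309 genes were higher and 336 lower at an unadjusted p under 0.05. Agonist wells that both lay below both control wells were found for 13.5% of tested genes and for 1 of the 9, Mpeg1. The reverse, both agonist wells above both control wells, held for 11.4% of tested genes and for 1 of the 9, Mertk. The choice of the set rests on this contrast, so nothing is read from these counts.

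**Figure D2:**
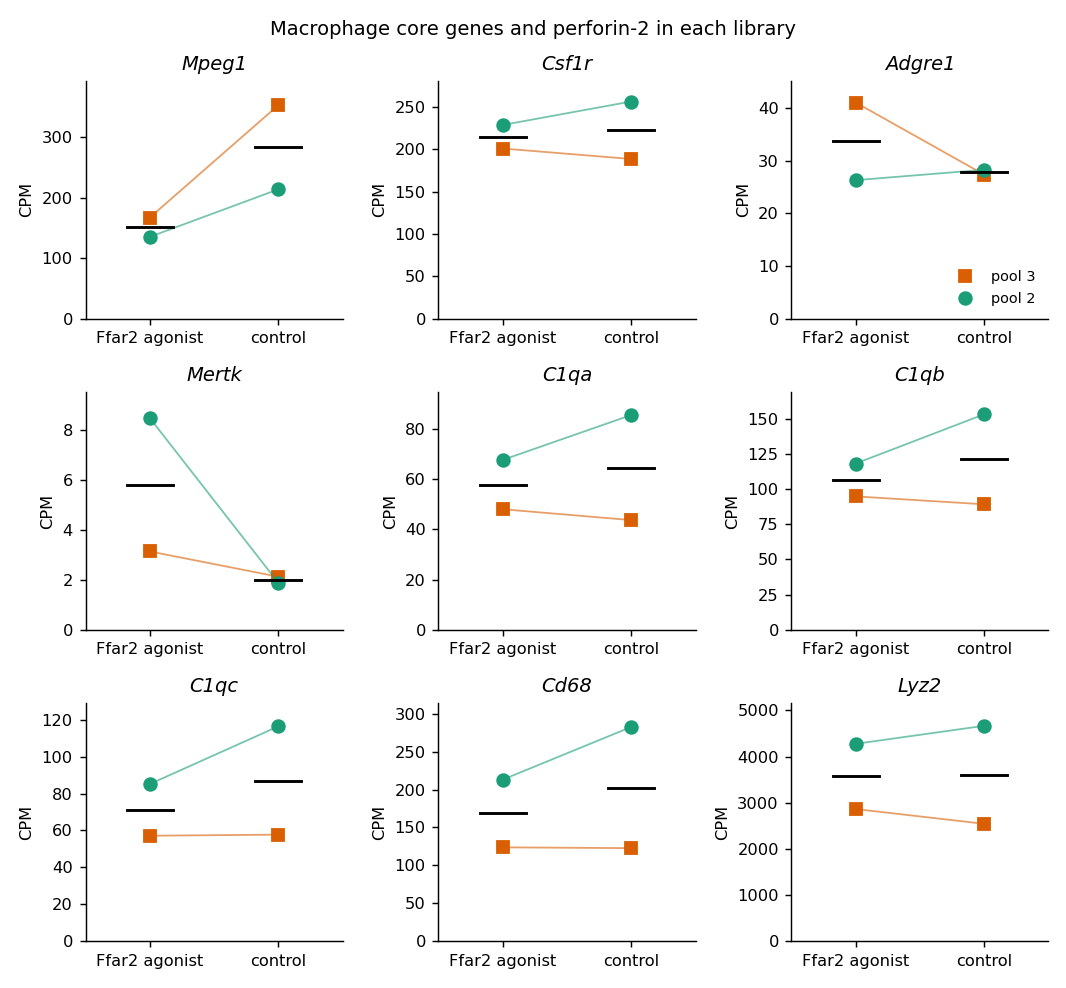
CPM of each of the 9 genes in the agonist wells (left) and control wells (right), with the y axis starting at 0. Squares are pool 3, circles pool 2, lines join the wells of a pool and black bars are group means. Mpeg1 is lower with agonist in both pools (151 against 283 CPM on average), Mertk is higher in both, and the C1q chains, Cd68 and Lyz2 are set apart by pool rather than by treatment.

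Mertk (ENSMUSG00000014361.5, chromosome 2, 128698956 to 128802894, plus strand) had 441 and 178 reads in agonist replicates 2 and 3, against 82 and 111 reads in control replicates 2 and 3. The levels were 8.48 and 3.14 CPM in the agonist wells, against 1.88 and 2.13 CPM in the control wells. Agonist replicate 2 stood far above the other 3 libraries, which lay close together. The means were 5.81 ± 3.78 CPM with agonist and 2.00 ± 0.171 CPM in the control (SD, n = 2 each). The agonist well had 1.48 times the control level in pool 3 (counting interval 1.16 to 1.89) and 4.50 times in pool 2 (3.55 to 5.77). The log2 difference, agonist minus control, was 1.53 over all libraries. It was 0.68 without agonist replicate 2, in a fit that sets agonist pool 3 against both control pools. Other genes stood high in that library too: Apoe, the lipid carrier made by macrophages, had 288 and 52.9 CPM in agonist replicates 2 and 3, against 47.2 and 52.7 CPM in control replicates 2 and 3. Whether a difference between the pool 2 wells contributes to the Mertk value was not tested.

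MERTK's ligands and sister receptors showed no matching pattern. Gas6, a bridging ligand, had 0 and 0.0353 CPM in the agonist wells, against 0.0230 and 0 CPM in the control wells. The other ligand, Pros1, had 2.83 and 5.76 CPM in the agonist wells, against 4.52 and 4.33 CPM in the control wells. Axl, a related receptor, had 61.4 and 51.2 CPM in the agonist wells, against 89.4 and 53.5 CPM in the control wells (log2 difference -0.34, edgeR adjusted p = 0.9999). Tyro3, the remaining receptor of the family, was read unevenly, with 1.31 and 0 CPM in the agonist wells, against 0.0459 and 0.996 CPM in the control wells. Of 17 ligands, receptors and efferocytosis genes, 16 were tested and 0 passed in either direction, with a median log2 difference of -0.05, beside -0.05 for all tested genes. Itgb5 and Lrp1, an integrin chain and an endocytic receptor, had the smallest p of that list, with log2 differences of -0.69 and 0.41.

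Csf1r (ENSMUSG00000024621.16, chromosome 18, 61100598 to 61132149, plus strand) was the steadiest of the set, with a highest level 1.36 times the lowest. It had 229 and 201 CPM in agonist replicates 2 and 3, against 256 and 188 CPM in control replicates 2 and 3. The pools lay apart and the treatments overlapped, with a log2 difference, agonist minus control, of 0.09 in pool 3 and -0.16 in pool 2. On the opposite strand 873 exon bases of Csf1r overlap exons of Hmgxb3, which had 12.9 to 18.7 CPM. The library kit does not mark strand, so reads there cannot be told apart between the genes. The ligands of the receptor were scarcely read. Csf1 had 2.04 and 0.458 CPM in the agonist wells, against 0.758 and 0.976 CPM in the control wells. Il34, the alternative ligand, had 0.154 and 0 CPM in the agonist wells and 0 CPM in both control wells. Of 12 ligands and signalling partners, 10 were tested and 0 passed, with a median log2 difference of -0.06. Csf2ra, a chain of the GM-CSF receptor, and the phospholipase gene Plcg2 had the smallest p, with log2 differences of 0.82 and 0.61. Their differences were 0.10 and 0.02 in pool 3 and 1.36 each in pool 2.

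Adgre1 (ENSMUSG00000004730.15, chromosome 17, 57358691 to 57483527, plus strand) had 26.3 and 41.1 CPM in agonist replicates 2 and 3, against 28.3 and 27.4 CPM in control replicates 2 and 3. The control wells were nearly equal, and agonist replicate 3 alone was high. The agonist well had 1.5 times the control level in pool 3 (counting interval 1.405 to 1.604) and 0.930 times in pool 2 (0.861 to 1.01). Of the 6543 better-read genes, 99.3% had a lower difference in pool 3, and 54.6% had a lower one in pool 2. Of 8 other adhesion receptors 8 were tested and 0 passed, with a median log2 difference of -0.31, 4 lower in both pools and 0 higher in both, against 27.8% and 21% of all tested genes. Adgrl1 and Adgrg3 had the smallest p, with log2 differences of -0.98 and -0.58 at levels of 0.829 to 2.87 and 1.18 to 7.40 CPM.

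The C1q genes lie side by side on chromosome 4 of GRCm38, on the minus strand, within 18675 bases: C1qb (136880129 to 136886187), C1qc (136889804 to 136893065) and C1qa (136895917 to 136898803). C1qb, the B chain, had 118 and 94.8 CPM in agonist replicates 2 and 3, against 153 and 89.2 CPM in control replicates 2 and 3. C1qc, the C chain, had 85.2 and 57.1 CPM in the agonist wells, against 117 and 57.7 CPM in the control wells. C1qa, the A chain, had 67.6 and 48.0 CPM in the agonist wells, against 85.5 and 43.7 CPM in the control wells. In each of the 3 genes control replicate 2 was highest, agonist replicate 2 came next, and the pool 3 wells were low. The log2 differences, agonist minus control, were 0.09, -0.01 and 0.14 in pool 3 and -0.38, -0.45 and -0.34 in pool 2 for C1qb, C1qc and C1qa in that order, so the chains moved together and the treatments overlapped.

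C1q protein holds its chains in equal number, and the transcripts kept a stable ratio of another kind. Per kilobase of coding transcript, C1qb supplied 44.0% to 48.2% of the C1q total, C1qc 26.3% to 30.3% and C1qa 24.4% to 26.6% over the 4 libraries. The share of C1qb was 48.2% and 47.7% in the agonist and control wells of pool 3, and 44.4% and 44.0% in those of pool 2, so it differed more between pools than between treatments. With lengths over all exons the range of C1qc was 18.2% to 21.3% and that of C1qa 27.3% to 29.9%, which reverses the order of those chains.

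**Figure D3:**
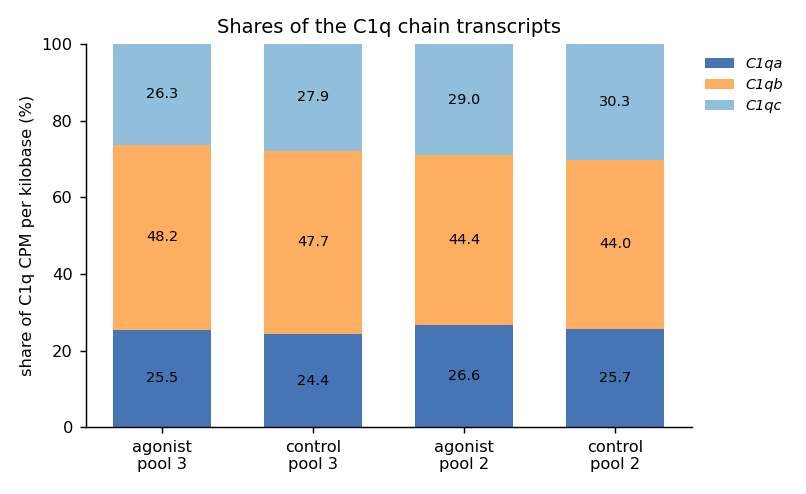
Share of C1qa, C1qb and C1qc in the summed CPM per kilobase of coding transcript (percent, stacked to 100) in each of the 4 libraries. C1qb is the largest part in every bar, from 44.0% in control pool 2 to 48.2% in agonist pool 3.

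The proteases that act with C1q were almost unread. C1ra had 0.558 and 2.42 CPM in agonist replicates 2 and 3, against 1.10 and 1.07 CPM in control replicates 2 and 3. C1s1 had 0.212 and 0.194 CPM in the agonist wells, against 0.322 and 0 CPM in the control wells. C3, the central complement component, was read at 191 and 85.5 CPM in the agonist wells, against 159 and 70.4 CPM in the control wells. It was higher with agonist by 0.28 log2 units in pool 3 and 0.27 in pool 2, without passing the test (edgeR adjusted p = 0.9999). Of 28 complement components and regulators, 20 were tested, 0 passed and 13 had less than 1 CPM in each library. Serping1, the C1 inhibitor, had a log2 difference of 0.79, made up of 0.11 in pool 3 and 1.43 in pool 2. Its level was only 0.689 to 1.92 CPM. Of 11 receptors for C1q and for fragments of C3 or C5, 10 were tested and 0 passed. Among them were the C5a receptor gene C5ar1 at 0.79 and calreticulin (Calr), which binds C1q on dying cells, at -0.17. C5ar1 had 0.651 to 2.36 CPM, with a difference of 1.80 in pool 3 and 0.11 in pool 2. That of Calr was 0.12 in pool 3 and -0.43 in pool 2.

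Cd68 (ENSMUSG00000018774.13, chromosome 11, 69664213 to 69666153, minus strand) had 213 and 124 CPM in agonist replicates 2 and 3, against 283 and 123 CPM in control replicates 2 and 3. The pool 3 wells were equal within counting error, with a fold of 1.01 (interval 0.975 to 1.04), and the agonist well of pool 2 had 0.754 times the control level (0.735 to 0.774). Of 19 related lysosomal membrane proteins and acid hydrolases, 18 were tested and 0 passed, with a median log2 difference of -0.06. Hexa, which encodes a lysosomal hydrolase subunit, had the smallest p, with a log2 difference of 0.75. Control replicate 2 was its low library, with 143 and 85.7 CPM in the agonist wells, against 49.8 and 85.8 CPM in the control wells.

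Lyz2 (ENSMUSG00000069516.8, chromosome 10, 117277331 to 117282321, minus strand) had 4275 and 2860 CPM in agonist replicates 2 and 3, against 4666 and 2540 CPM in control replicates 2 and 3. The wells of a pool were close and the pools lay apart, with a log2 difference, agonist minus control, of 0.17 in pool 3 and -0.13 in pool 2. Its neighbour Lyz1, the lysozyme gene of Paneth cells, lies 5475 bases away and shares 15.4% of the 50-base windows of the Lyz2 transcript. Reads aligned to several places were not counted, so both levels are uncertain. Lyz1 had 189 and 71.8 CPM in the agonist wells, against 202 and 65.8 CPM in the control wells. The ratio of Lyz2 to Lyz1 CPM was 22.6 and 39.8 in agonist replicates 2 and 3, against 23.1 and 38.6 in control replicates 2 and 3, so it lay apart by pool. Of 14 lysozymes and other antibacterial genes, 9 were tested and 0 passed. Ncf1, a subunit of the phagocyte oxidase, had the smallest p, with a log2 difference of 0.89, made up of -0.05 in pool 3 and 1.92 in pool 2. Acod1, the enzyme that makes itaconate, came next at -0.52.

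Perforin-2 belongs to the family of pore-forming proteins that includes perforin and the late complement components. Of 11 other family members only 3 passed the filter, and 9 had less than 1 CPM in each library. Prf1, perforin, was read at 6.69 and 1.04 CPM in the agonist wells, against 7.97 and 2.09 CPM in the control wells, with a log2 difference of -0.38 (edgeR adjusted p = 0.9999). C6, a component of the membrane attack complex, had one of -0.34, made up of 0.91 in pool 3 and -1.68 in pool 2. Its level was 1.17 to 3.84 CPM.

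Macrophage transcription factors and subset genes were also read without a call. Of 15 transcription factors 13 were tested and 0 passed. Spi1, which encodes PU.1, had 88.0 and 65.8 CPM in agonist replicates 2 and 3, against 64.6 and 58.0 CPM in control replicates 2 and 3 (log2 difference 0.33). Irf8, a factor of monocytes and dendritic cells, had 506 and 264 CPM in the agonist wells, against 126 and 280 CPM in the control wells, with a log2 difference of -0.09 in pool 3 and 2.00 in pool 2. Bhlhe41, a factor of tissue macrophages and B cells, was lower with agonist by values of -1.05 in pool 3 and -0.69 in pool 2. Of 24 genes of lymph node and gut macrophage subsets 21 were tested and 0 passed, with a median log2 difference of -0.06. Apoe (log2 difference 1.77, unadjusted p = 0.0484 in edgeR, adjusted p = 0.9999) and Lyve1 (2.44, at most 0.654 CPM) had the smallest p there. Across the 10 lists, 126 of 154 genes were tested and 0 passed in edgeR, limma-voom or DESeq2. In edgeR's main fit 2 genes, Apoe among them, were past an unadjusted p of 0.05. With the pool as a block, edgeR had 2 higher and 1 lower at that unadjusted p, and 0 passed.

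**Figure D4:**
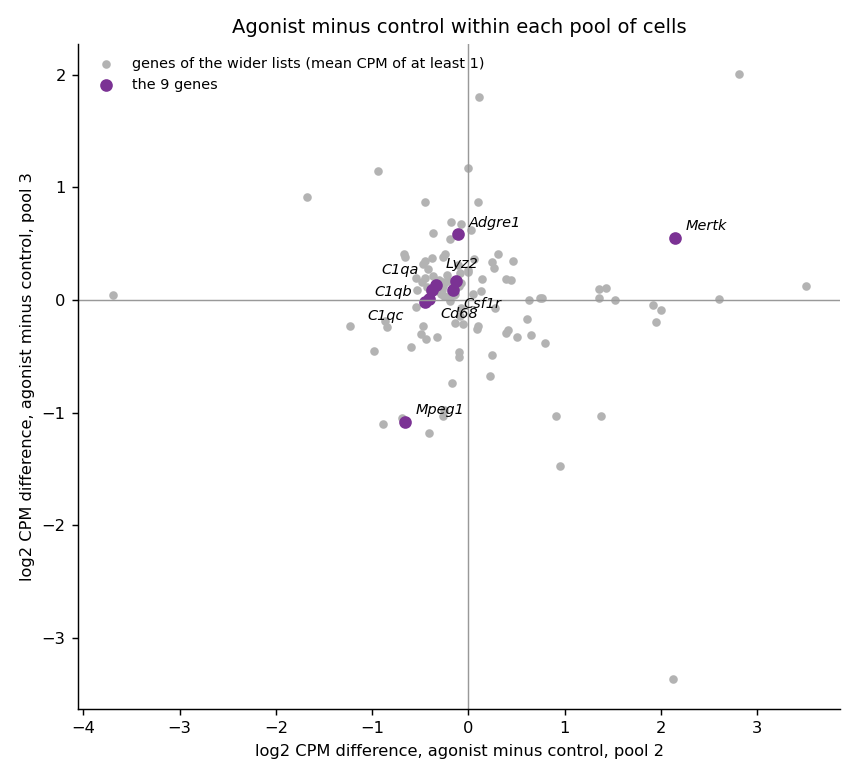
Log2 CPM difference, agonist minus control, in pool 3 (y axis) and in pool 2 (x axis). Purple points are the 9 genes and grey points the tested genes of the wider lists with a mean CPM of at least 1. Mpeg1 lies low on both axes (-1.08 in pool 3 and -0.66 in pool 2), Mertk high on both (0.55 in pool 3 and 2.15 in pool 2), and the other 7 lie within 0.59 of 0 on each axis.

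As a whole, the 9 genes had a median log2 difference, agonist minus control, of -0.16, beside -0.05 for all tested genes. Within the pools it was 0.09 (pool 3) and -0.34 (pool 2), beside -0.0048 and -0.09 for all tested genes. Of the 9, 2 were lower with agonist in both pools, Mpeg1 and C1qc, 1 was higher in both, Mertk, and 6 went opposite ways, against 27.8%, 21% and 50.6% of all tested genes. The median of the set was 0.30 without control replicate 2 and 0.04 without agonist replicate 3. Such fits set both pools of an arm against only 1 pool of the other, so pool differences enter these values. Marker lists of other cells differed in direction. With agonist, 7 of 7 B cell markers were lower in both pools, with sums of 643 and 341 CPM in agonist replicates 2 and 3, against 738 and 407 CPM in control replicates 2 and 3. So were 8 of 8 T cell markers, with sums of 460 and 232 CPM in the agonist wells, against 672 and 326 CPM in the control wells, and 5 of 6 plasmacytoid dendritic cell markers, with sums of 742 and 449 CPM in the agonist wells, against 986 and 625 CPM in the control wells. No marker of those 3 lists was at 0. Plasma cell markers summed to 148 and 72.1 CPM in the agonist wells, against 493 and 299 CPM in the control wells. Most of that sum in the control wells came from Igha, and 2 of the 6 tested plasma cell markers were lower and 2 higher in both pools. Of 12 conventional dendritic cell markers, 5 were higher and 3 lower with agonist in both pools, with a median log2 difference of 0.20. The median was also above 0 for the plasma cell list (0.47, 6 tested), the neutrophil list (0.33, 5 tested) and the mast cell list (1.76, 4 tested). Within the pools the medians of these lists had opposite signs. They were -0.31 in pool 3 and 0.81 in pool 2 for plasma cells, and 0.93 and -0.72 for neutrophils. For mast cells they were -0.09 and 2.31, and Kit, the best-read mast cell marker, had a log2 difference of 0.0073 over all libraries. The part of these cell types in the Mpeg1 value was not tested.

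The pools give a contrast that did not enter the choice of the genes. With treatment as a covariate, edgeR called 72 of 18297 genes between pool 3 and pool 2 (0.394%; 53 lower in pool 3, 0.29%, and 19 higher, 0.104%), and 0 of the 9. At an unadjusted p under 0.05, 4 of the 9 were lower in pool 3, against 7.71% of all tested genes, and 0 were higher, against 6.15%. limma-voom also called 0 of the 9 and DESeq2 called 1, Cd68. The pool 3 wells both lay below both pool 2 wells for 6 of the 9, against 25.2% of tested genes, and above them for 0 of the 9, against 24%. With 3 libraries the treatment term leaves no residual degrees of freedom, so fits that leave out a library also drop that term, and both choices change at once. Such fits called 841 genes without control replicate 2, 1 without control replicate 3, 1575 without agonist replicate 2 and 10 without agonist replicate 3, beside 5 with all 4 libraries and no treatment term. This sets 1 pool against 1 pool, so the p-values cover the spread between wells, and pool and sex cannot be told apart.

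Cd68 had the lowest pool 3 value of the set relative to pool 2, at 123 ± 0.786 CPM in pool 3 and 248 ± 49.2 CPM in pool 2 (SD, n = 2 wells each). The wells of a pool are an agonist and a control well, so SDs of a pool, here and below, include the treatment difference. For Cd68 the log2 difference was -0.995 (SE 0.24, edgeR adjusted p = 0.113). Lyz2 averaged 2700 ± 227 CPM in pool 3 and 4470 ± 276 CPM in pool 2 (-0.73, SE 0.24, edgeR adjusted p = 0.219). The C1q genes had log2 differences of -0.80 for C1qc, -0.73 for C1qa and -0.55 for C1qb, with edgeR adjusted p values of 0.202, 0.248 and 0.372. Csf1r followed at -0.32. Mpeg1 pointed the other way, at 260 ± 131 CPM in pool 3 and 174 ± 55.5 CPM in pool 2 (0.51, SE 0.24, edgeR adjusted p = 0.389). Its pool difference was 0.30 between the agonist wells and 0.72 between the control wells. Adgre1 (0.30) and Mertk (-0.65) also missed the threshold, and the Mertk difference was -1.42 between the agonist wells and 0.17 between the control wells. Without agonist replicate 2, in a fit with no treatment term, 5 of the 9 were called lower in pool 3, namely Cd68, C1qc, C1qa, C1qb and Lyz2 (edgeR adjusted p of 0.0149 to 0.0472), beside 3.33% of the 19727 genes tested in that fit. Cd68 was also called lower without control replicate 2 and the treatment term (edgeR adjusted p = 0.0364), beside 2.32% of 19811 genes.

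Of the 126 genes of the wider lists 1 passed between the pools, Lyz1, at 68.8 ± 4.26 CPM in pool 3 and 196 ± 9.31 CPM in pool 2 (log2 difference -1.51, SE 0.24, edgeR adjusted p = 0.0426), a call lost with total counts only, with the stricter filter, without the treatment term, and in the fits that drop that term together with control replicate 3 or agonist replicate 3. Prf1 (-2.30, adjusted p = 0.0733), C3 (-1.17, adjusted p = 0.0777) and the cathepsin gene Ctsl (-1.07, adjusted p = 0.0973) came next in edgeR's test without passing. Spic, a transcription factor of iron-recycling macrophages, had 190 and 123 CPM in the agonist and control wells of pool 3, and 75.0 and 73.4 CPM in those of pool 2 (log2 difference 1.04, edgeR adjusted p = 0.113). Tyrobp, an adaptor of myeloid receptors, had a difference of -0.86 (edgeR adjusted p = 0.139). Other genes with small p that missed the threshold had negative values, among them Klf4 (-1.36), the integrin chains Itgb3 (-1.80), Itgb2 (-0.78) and Itgax (-0.87), the kinase subunit Pik3cd (-0.70), the lipid receptor gene Cd300lf (-1.11) and the complement regulator Cd55 (-0.95). So did the phagocyte oxidase gene Cybb (-0.90), the acid phosphatase Acp5 (-0.87), Cd4 (-0.96) and Adgrg3 (-1.83). Adgrl4 (2.44) and Cd5l (0.94) were positive. Adgrl4 was little read, at 2.08 and 2.85 CPM in the agonist and control wells of pool 3, and 0.308 and 0.643 CPM in pool 2. The summed level of plasmacytoid dendritic cell markers was 449 and 625 CPM in the agonist and control wells of pool 3, and 742 and 986 CPM in those of pool 2. That of conventional dendritic cell markers was 16170 and 14720 CPM in pool 3, and 11910 and 12190 CPM in pool 2. Without Ccr7, which marks migratory dendritic cells, that sum was 2786 and 2462 CPM in the agonist and control wells of pool 3, and 4538 and 2117 CPM in those of pool 2, so its pools overlapped. Monocyte markers summed to 147 and 195 CPM in the agonist and control wells of pool 3, and 270 and 343 CPM in those of pool 2. Plac8, of that list, was called lower in pool 3 (log2 difference -1.52, edgeR adjusted p = 0.0426), and Ly6c2 had a difference of -1.24 (edgeR adjusted p = 0.0772). B cell markers summed to 341 and 407 CPM in the agonist and control wells of pool 3, and 643 and 738 CPM in those of pool 2. T cell markers summed to 232 and 326 CPM in those of pool 3, and 460 and 672 CPM in those of pool 2. Their part in the pool differences of Cd68, Lyz2 and C1q was not tested.

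**Figure D5:**
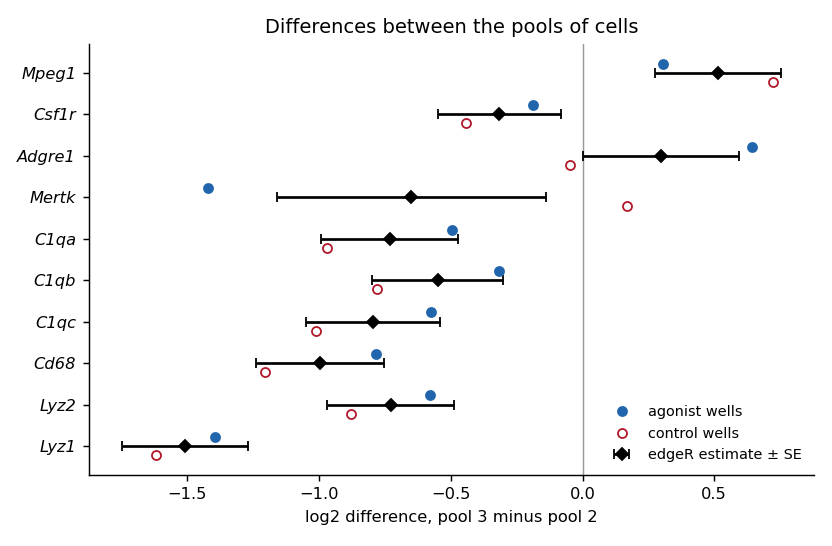
Log2 difference, pool 3 minus pool 2, for the 9 genes and Lyz1. Diamonds are edgeR estimates with SE bars, filled circles the difference between the agonist wells and open circles that between the control wells. Cd68, Lyz2, the C1q genes and Lyz1 lie below 0 in both treatments, and Mpeg1 above 0 in both (0.30 in the agonist wells and 0.72 in the control wells).

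Likeness of pattern was measured as the root mean square difference between log2 CPM deviations from the mean of the 4 libraries, over genes with a mean CPM of at least 10 and without clone names. The 5 genes nearest to Mpeg1 were Zfp626, Tldc1, Zfp65, Dennd6a and Wdfy3, at 0.21 to 0.23 log2 units, and none of the other members with enough reads came nearer than 0.61. Among the 5 nearest to the mean of the C1q chains were Rpl36, Eif2s3x, B4galt3 and Mndal, at 0.016 to 0.027. Lyz2 ranked 125, Cd68 403 and Csf1r 775 by that measure, so many genes outside the set shared the C1q pattern, with control replicate 2 high and pool 3 low. With 4 libraries that share their pools, such likeness is a description only.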

How the data were processed

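RNA of CD11c+ mesenteric lymph node cells was sequenced after SMART-seq v4 library preparation, per the labels' protocols. The authors deposited whole-number read counts per gene, without normalization. The tools listed in the submitters' processing notes are STAR 2.7 and HTSeq 0.11.1, with the GRCm38 (mm10) build. The strand setting is not given in the sources used here. All 55450 gene rows matched GENCODE M21 by ID and symbol. Reads outside genes (16.0% to 20.0% of a library), in several genes (5.77% to 6.50%) or aligned to several places (6.54% to 6.99%) name no gene and were left out.

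The counts were analysed with edgeR 4.0.16 in R 4.3.3: default expression filter (minimum count 10), trimmed mean of M-values (TMM) scaling with factors of 0.947 to 1.05, and the quasi-likelihood test (two-sided, treatment as sole term), adjusted by Benjamini-Hochberg over all 18297 tested genes at 0.05. The pool contrast added group as a covariate. SEs were derived from the log2 difference and the F statistic. CPM uses TMM-scaled totals, and within-pool log2 differences a prior count of 2. Counting intervals are exact Clopper-Pearson 95% intervals and cover counting error only. Both fits were run on simulated counts whose spread was estimated with treatment and pool in the model. Apart from a set of genes changed by known folds, those counts held no treatment or pool difference. The run therefore does not measure the power of the tests on these data. DESeq2 1.42.0 and limma 3.58.1 were alternatives, with other scalings and filters, the pool as a block and each library left out.

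The labels state that each pool was divided between the wells, and same-numbered libraries deviated together (Pearson r = 0.288 across 18297 genes), so the numbers pair the libraries. P-values measure the spread between these wells and pools. The members and lists were chosen with earlier results of these data known. Besides the members, named genes are their direct ligands, receptors and partners, and the 2 genes of each list with the smallest p in either contrast. The nearest genes in pattern are also named, and others were chosen after their values were seen. Some genes that this rule names are not reported here.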

Additional observations from a re-analysis of the deposited data

Results flagged for a closer look

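In 4 of the 9 genes the agonist and control wells differed in opposite directions in the pools, each by more than counting error, with 1 pair of wells per pool, so the difference between the pools was not tested. The log2 difference, agonist minus control, of Lyz2 was 0.17 in pool 3 and -0.13 in pool 2. That of C1qa was 0.14 in pool 3 and -0.34 in pool 2, that of C1qb 0.088 in pool 3 and -0.38 in pool 2, and that of Csf1r 0.092 in pool 3 and -0.16 in pool 2. By sign alone, whatever the counting error, 6 of the 9 genes and 50.6% of all tested genes had opposite directions. For opposite directions beyond counting error, the share of all tested genes is not given. Nothing is therefore read from the count of 4.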

How the results depend on the processing

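The count of genes called between agonist and control was 0 in edgeR, 9 with no filter, 7 in DESeq2 and 0 to 2 when a library was left out. With the replicate block it was 1, Igha, and the block changed no other call in the wider lists. The count of wider-list genes called for the agonist was 0 under each alternative. The median log2 difference of the 9 genes, agonist minus control, ran from -0.43 to 0.30 when a library was left out, and from -0.16 to -0.09 under the other alternatives. Leaving out a library sets both pools of an arm against only 1 pool of the other, so pool differences enter the first range. Of the log2 differences of single genes for the agonist, 63 of 63 under other settings and 29 of 36 without a library moved by less than the spread between replicates.

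Between pool 3 and pool 2 the count of all genes called, 72 as reported, was 5 with total counts only, 600 with no filter, 8 with the stricter filter, 706 in DESeq2, 275 in limma-voom, 5 without the treatment term and 1 to 1575 when a library was left out. Of the 9 genes, 1 was called with no filter and 1 in DESeq2 (Cd68 in both), and 0 to 5 when a library was left out. The wider-list count, 1 as reported, was 0 with total counts only, 8 with no filter, 0 with the stricter filter, 12 in DESeq2, 3 in limma-voom, 0 without the treatment term and 0 to 34 without a library. Pool fits without a library also drop the treatment term, so these changes cannot be put down to the library alone. In them the pool difference ran from -0.065 (without control replicate 3) to 1.02 for Mpeg1 and from -1.68 to 0.50 (without agonist replicate 2) for Mertk. Beyond the construction of these fits, the cause of the changes was not tested. Depth limits Mertk the most of the 9 genes, with 82 to 441 reads per library.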
